A study of Mus musculus with 27 samples.

Results

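The genes S100a4, S100a6, S100a10, S100a11, Anxa1, Anxa2, Anxa3, Anxa5, Lgals1 and Lgals3 were followed across all 13 groups of the arrays. They are 10 of the 37208 genes or transcripts measured, of which 20145 had a gene symbol. They were chosen by measured values of these same arrays, namely the lower signals of S100a6 and Lgals1 with doxycycline (DOX) in HE1 cells. Every comparison that holds HE1 arrays is therefore given as a description without a test. The main tests still took their spread from a fit that held the HE1 arrays, so they are not free of this choice. How far this moved their p-values was not tested. All 10 genes had a probe, and all 10 passed the filter on dim probes in every comparison, S100a4 against FLK1+ cells and Lgals3 against untreated HE2 only through the other group, where they were brighter.

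RNA came from a mouse ESC line (dnFOS) in which DOX switches on a Flag-tagged dominant-negative FOS peptide. The peptide binds JUN family proteins and keeps AP-1 from DNA. All groups came from this transgenic line, the untreated ones included, and DOX was never given to cassette-free cells, so that DOX itself and the peptide cannot be told apart. Embryoid bodies were grown for 3.75 days from ESCs kept on fibroblast feeders, and FLK1+ cells, which hold the hemangioblasts (HB), were purified. Freshly purified FLK1+ cells formed 1 group. The other 12 groups were blast cultures without and with 1 µg/ml DOX. Complete cultures were taken after 5 h (FLK1+ 5h) and 1 day (d1 BC). After 2 days, cultures were sorted into smooth muscle (SM) cells, HE1 (KIT+TIE2+CD41-) and HE2 (KIT+TIE2+CD41+) hemogenic endothelium, and hematopoietic progenitors (HP, KIT+TIE2-CD41+). There were 3 untreated SM arrays and 2 arrays in every other group.

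Most S100 proteins are small calcium-binding proteins that change shape when calcium rises and then hold partner proteins. Annexins bind membrane phospholipids in a calcium-dependent way, and several work in pairs with S100 proteins at the inner face of the membrane, such as annexin A2 with S100A10 and annexin A1 with S100A11. Galectins are lectins that bind galactose-containing sugar chains, and galectin-1 and galectin-3 act inside cells as well as on the cell surface and in the matrix, where smooth muscle and endothelial cells are known to express galectin-1.

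Because the peptide blocks AP-1, the bases before the start sites were searched for the AP-1 site TGANTCA, the CRE-type site TGACGTCA and the TEAD site GGAATG, on both strands and over 250 bases before to 50 bases after each start. The first 2 motifs read the same on both strands and none of the matches overlapped. RefSeq promoters (GRCm38.p6) were given for 7 of the 10 genes, all but S100a10, Anxa3 and Lgals1. TGANTCA was present in 2 of the 7 (28.6%), against 7.81% of 32851 promoters of the same length. TGACGTCA was in 0 of the 7 (1.79% of all) and GGAATG in 1, that of Anxa1 (14.3%, against 14.7% of all). The promoters of S100a11 and Anxa2 are shown because they hold the AP-1 letters, in capitals, and that of S100a6 because this gene, by the probe kept per gene, had the largest mean difference with DOX over SM, HE2 and HP. The S100a11 stretch lies on the plus strand at chr3:93520246-93520495, that of Anxa2 on the plus strand at chr9:69453433-69453682, and that of S100a6 on the plus strand at chr3:90612644-90612893, each ending at the base before the start.
S100a11: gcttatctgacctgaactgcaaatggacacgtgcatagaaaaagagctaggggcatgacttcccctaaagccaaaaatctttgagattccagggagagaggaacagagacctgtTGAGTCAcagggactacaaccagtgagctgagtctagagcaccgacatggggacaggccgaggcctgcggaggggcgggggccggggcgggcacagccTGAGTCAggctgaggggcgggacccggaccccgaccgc
Anxa2: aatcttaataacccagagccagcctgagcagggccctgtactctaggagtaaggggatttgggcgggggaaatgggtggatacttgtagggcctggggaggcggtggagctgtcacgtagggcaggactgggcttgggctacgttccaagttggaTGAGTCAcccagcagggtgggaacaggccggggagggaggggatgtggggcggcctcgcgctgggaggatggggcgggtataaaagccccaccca
S100a6: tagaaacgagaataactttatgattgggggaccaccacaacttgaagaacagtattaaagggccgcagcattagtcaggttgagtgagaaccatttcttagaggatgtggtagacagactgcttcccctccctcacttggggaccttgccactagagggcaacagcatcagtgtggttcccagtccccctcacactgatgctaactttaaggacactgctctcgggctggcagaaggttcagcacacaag
The S100a11 sites begin at -136 and -38 and the Anxa2 site at -95, counted back from the start. The S100a6 stretch held none of the 3 motifs.

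Signals are given on a log2 scale on which 0 is the 75th percentile of all probes of the same array. A level can be compared for 1 gene between groups, not between genes. That percentile was lowest for HE2 replicate 1, at a signal of 73.2, and highest for FLK1+ 5h replicate 2, at 636, while 46.9% to 89.6% of probes were well above background. All 10 genes were above background on every array, apart from S100a4 on FLK1+ replicate 2 and Lgals3 on untreated HE2 replicate 1. Hprt, the locus that carries the cassette, was higher on DOX arrays than on the untreated arrays of the same population in all 6 populations. SM cells carried Acta2, a smooth muscle actin, at 9.10 to 9.84, which overlapped d1 BC at 8.92 to 9.27. Tagln, another smooth muscle gene, overlapped as well, at 8.48 to 9.97 in SM and 8.97 to 9.85 in d1 BC. Cnn1 (calponin) was lower in SM, at 4.44 to 5.27, than in d1 BC, at 6.22 to 6.68, and than in FLK1+ 5h. All these markers were higher in SM than in untreated HE1, HE2 and HP. HE2 carried Itga2b (CD41) at 2.64 to 3.77 against 0.87 to 1.33 in HE1. With DOX, HE2 replicate 2 had Itga2b at 0.06 and HP replicate 1 at 0.43, both below the untreated HE1 arrays although sorted as CD41+, and HE1 replicate 1, sorted as CD41-, had it at 1.94. SM replicate 2 stood apart from the other SM arrays with the endothelial cadherin Cdh5 at 4.34 against -1.12 and -0.41, and SM DOX replicate 2 did so with Cdh5 at 4.74 against -1.38. Nothing in the labels says whether replicates were separate differentiations, so p-values measure only the spread between these arrays.

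Among untreated populations, the S100 genes did not share 1 pattern. S100a6, which encodes a calcium-sensing protein of proliferating and mesenchymal cells, had signals of 3.06 and 2.68 in FLK1+ cells, 6.53 and 5.57 in FLK1+ 5h, and 7.16 and 6.35 in d1 BC. It was 6.91, 6.77 and 6.55 in SM, 5.23 and 5.87 in HE1, 3.17 and 4.20 in HE2, and 3.11 and 5.65 in HP. The order ran from d1 BC and SM, whose arrays overlapped, through FLK1+ 5h, HE1, HP and HE2, each overlapping its neighbour, to FLK1+ cells, which lay below all other arrays. S100a4, a protein long used as a marker of motile mesenchymal cells, was -3.06 and -3.59 in FLK1+ cells and lay between -1.01 and 2.02 in every other untreated group. Its arrays were 1.04 and 2.02 in HP and 0.42 and 1.05 in HE2, which overlapped, and -0.34, 0.13 and -1.01 in SM. S100a10, the partner of annexin A2, lay between 5.58 and 6.76 in FLK1+, FLK1+ 5h, d1 BC and SM cells. It was 5.06 and 4.71 in HE1, 2.72 and 3.80 in HE2, and 3.40 and 4.53 in HP. S100a11, the partner of annexin A1, was highest in SM, at 5.22, 5.49 and 6.03, and lowest in HE2, at 1.31 and 1.62, where both arrays lay below all arrays of the other untreated groups.

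**Figure D1:**
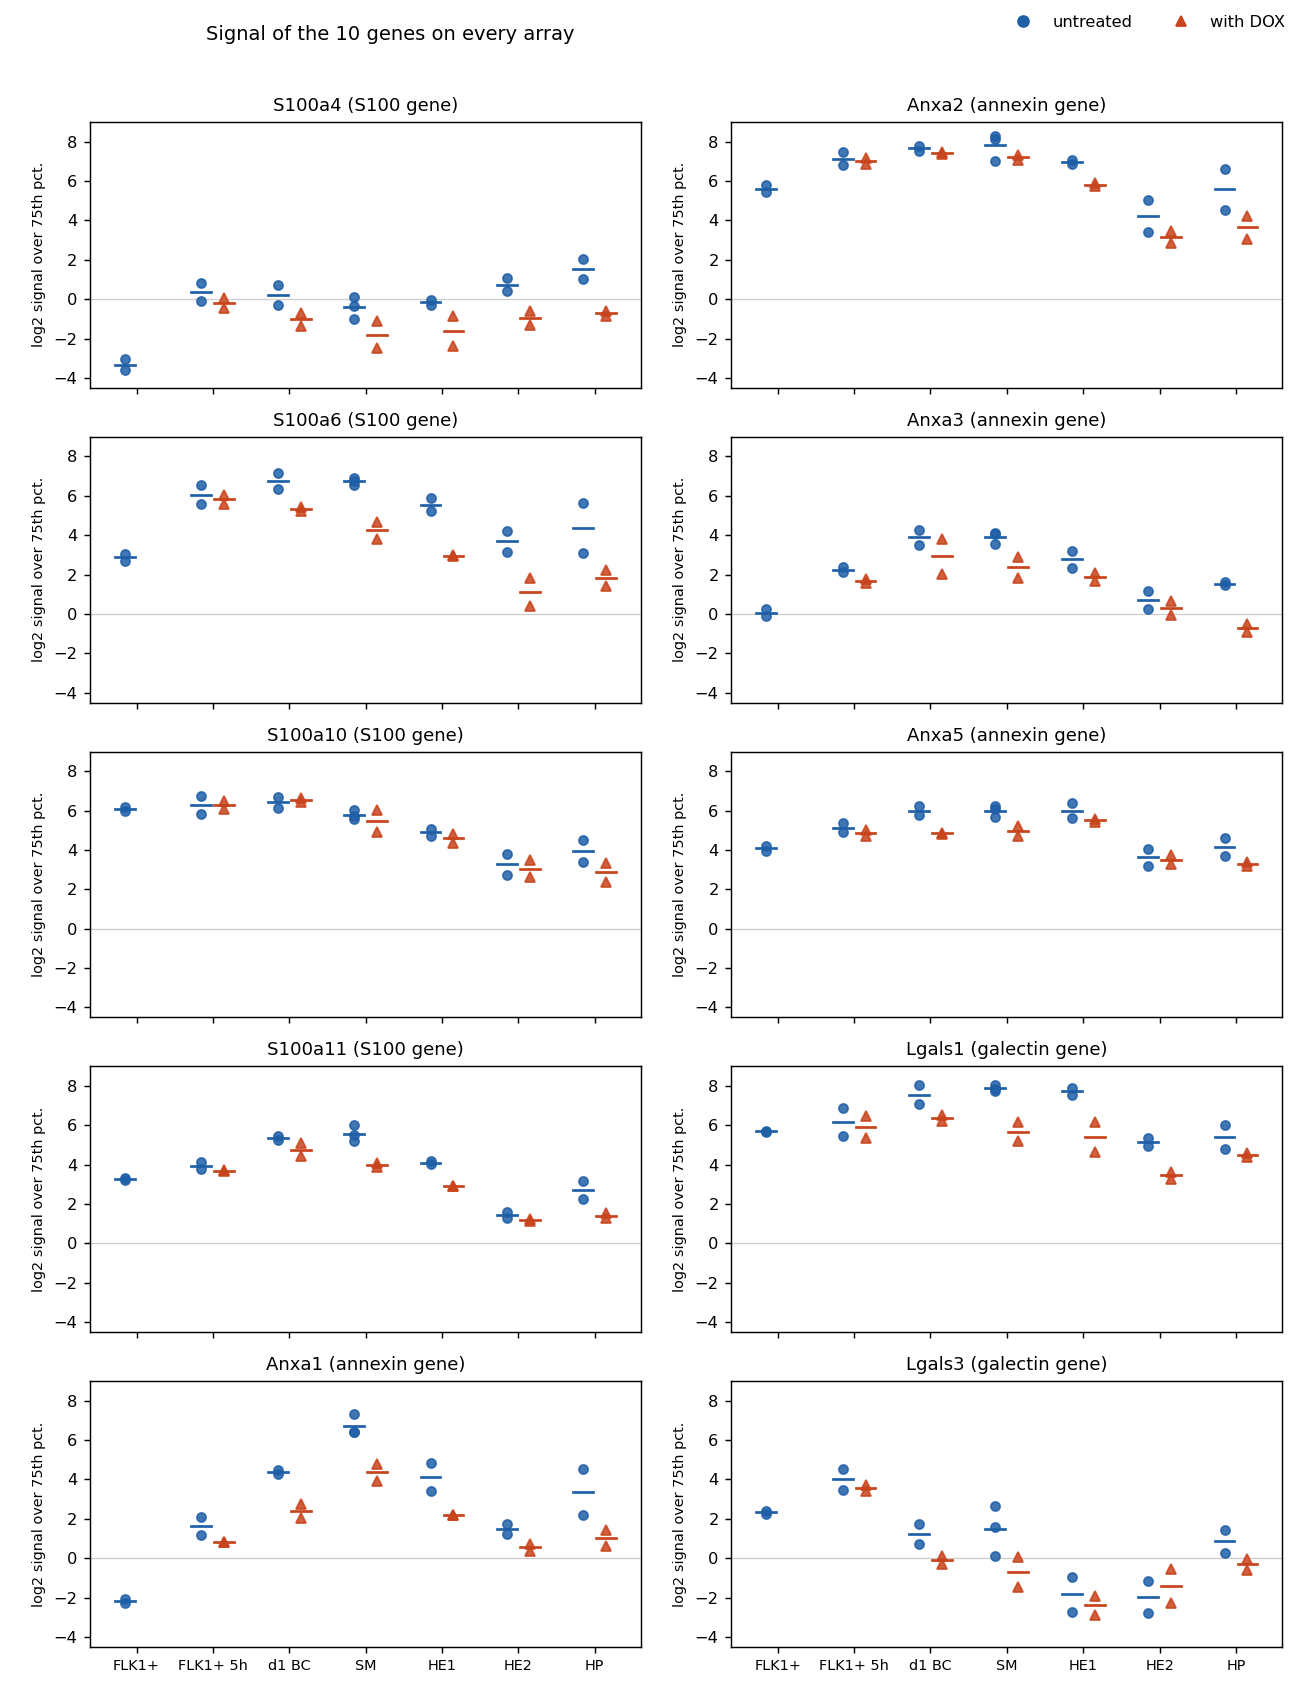
Signal of each of the 10 genes on all 27 arrays, as log2 signal over the 75th percentile of the array, by population. Each point is 1 array (circles untreated, triangles with DOX) and each bar is the group mean. In HE2 the S100a11 signals were 1.31 and 1.62, against 5.22 to 6.03 in SM. Heights are not comparable between panels of different genes.

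The annexin genes were highest in SM cells and d1 BC, with Anxa5 as high in HE1. Anxa1, which encodes an anti-inflammatory annexin, was -2.27 and -2.07 in FLK1+ cells, 2.12 and 1.19 in FLK1+ 5h, 4.27 and 4.48 in d1 BC, and 6.39, 7.31 and 6.42 in SM. It was 4.85 and 3.42 in HE1, 1.21 and 1.76 in HE2, and 2.18 and 4.52 in HP. The SM arrays lay above every other untreated array and the FLK1+ arrays below every other one. Anxa2, which organises membrane and actin contacts, was 8.13, 8.27 and 7.04 in SM, 6.89 and 7.09 in HE1, 3.39 and 5.02 in HE2, and 4.54 and 6.63 in HP. Anxa3 was between 3.52 and 4.27 in d1 BC and SM and between -0.11 and 0.25 in FLK1+ cells. Anxa5, the annexin whose protein binds exposed phosphatidylserine on dying cells, lay between 5.61 and 6.37 in d1 BC, SM and HE1. Its HE2 arrays were 3.19 and 4.06, and its HP arrays 3.71 and 4.60.

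The galectin genes differed from each other. Lgals1 was 7.84, 8.06 and 7.77 in SM, 7.91 and 7.55 in HE1, and 8.05 and 7.08 in d1 BC, with arrays of the 3 populations overlapping. It was 5.35 and 4.93 in HE2 and 4.80 and 6.02 in HP, which overlapped each other and lay below all arrays of those 3 populations. Lgals3, whose product is abundant in macrophages, was highest in FLK1+ 5h, at 4.54 and 3.47. It was -0.93 and -2.73 in HE1 and -2.80 and -1.17 in HE2, and it was 0.29 and 1.43 in HP. The HP arrays thus lay above all HE1 and HE2 arrays for Lgals3, in contrast to Lgals1.

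The first comparison asked what happened within 5 h of blast culture. Against FLK1+ cells, 3 of the 10 genes rose in FLK1+ 5h, beside 2.59% of 22664 features called higher. Anxa1 rose 14.1-fold (log2 difference 3.82 ± 0.67 SE, limma adjusted p = 0.00441) and S100a6 9.02-fold (3.17 ± 0.70, adjusted p = 0.0191). S100a4 was also called, with a limma adjusted p of 0.00387, and stayed so with no filter on dim probes. It was not well above background on 1 of the 2 FLK1+ arrays and entered the test through FLK1+ 5h, so that its difference of 3.70 ± 0.64 is uncertain in size. A gene was called when limma's Benjamini-Hochberg adjusted p over all features was under 0.05 and the change at least 2-fold. Anxa3 missed the threshold at 2.18 ± 0.59 (limma adjusted p = 0.0535), and the median of the 10 genes was 1.60 against -0.18 over all features. S100a10 and Lgals1 differed least, at 0.21 ± 0.57 and 0.48 ± 0.62, and their arrays overlapped. Both FLK1+ arrays and FLK1+ 5h replicate 2 shared a slide, and FLK1+ 5h replicate 1 was alone on another. Without FLK1+ 5h replicate 1 no gene of the 10 was called, and with the slide as a fixed block S100a4 alone was called. Within the shared slide the differences were 3.45 and 3.25 for Anxa1, 2.98 and 3.51 for S100a4, and 2.50 and 2.88 for S100a6. Summed smooth muscle markers were 6.44 to 6.76 in FLK1+ cells and 8.92 to 9.72 in FLK1+ 5h. Mesothelial markers were 5.68 to 6.28 and 7.77 to 8.28. Endothelial markers were lower, at 4.20 to 4.76 and then 2.45 to 3.25, as were pluripotency markers, at 4.49 to 4.76 and then 3.22 to 3.87. Hematopoietic sums were higher, erythroid sums lower, and myeloid and fibroblast sums overlapped. The part of these cells was not tested.

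No gene of the 10 was called between FLK1+ 5h and d1 BC (limma, 1.44% of features called; 5 of the 10 at an unadjusted p under 0.05, beside 10.6% of features) or between d1 BC and SM (0.243% called; 1 of the 10 at an unadjusted p under 0.05, beside 5.86%). Anxa1 lay higher by value at both steps, at 2.72 ± 0.67 from FLK1+ 5h to d1 BC (limma adjusted p = 0.0503) and 2.33 ± 0.61 from d1 BC to SM (limma adjusted p = 0.183). Lgals3 was lower in d1 BC than in FLK1+ 5h by value, at -2.76 ± 0.86 (limma adjusted p = 0.156), and the arrays did not overlap. S100a6 differed by -0.01 ± 0.64 between SM and d1 BC.

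The smooth muscle and blood branches were set apart by nearly all 10 genes. In HE2, 9 of the 10 fell against SM, beside 6.34% of 24191 features called lower, and the arrays of the 2 groups did not overlap for any of the 9 (15.7% of features). The largest fall was that of Anxa1, which was 37.2-fold lower (-5.22 ± 0.61, limma adjusted p = 1.9e-05). S100a11, its partner, was 17.3-fold lower (-4.11 ± 0.40, limma adjusted p = 5e-06). Anxa2 was 12.2-fold lower (-3.60 ± 0.61) and S100a10, its partner, 5.70-fold lower (-2.51 ± 0.52), with limma adjusted p of 0.000547 and 0.00369. These 4 genes encode both annexin-S100 pairs named above, and all 4 fell. S100a6 was 8.33-fold lower (-3.06 ± 0.64, limma adjusted p = 0.00392) and Lgals1 6.72-fold lower (-2.75 ± 0.57, adjusted p = 0.00353). Lgals3 was at -3.45 ± 0.79 (limma adjusted p = 0.00753), with 1 of its 2 HE2 arrays not well above background, so that the size is uncertain. It entered the test through SM, where it was brighter, and it was still called by limma with no filter on dim probes. Anxa3 and Anxa5 fell by 3.18 and 2.37 on the log2 scale. S100a4 stood against them at 1.14 ± 0.59 and was not called (limma adjusted p = 0.315). Without HE2 replicate 1, the array with the lowest signal, 6 of the 10 genes were called, and S100a6 (-2.54), S100a10 (-1.97) and Lgals3 (-2.64) were not, with limma adjusted p of 0.103, 0.113 and 0.204. Anxa2 was -2.79 without that array and -4.42 without HE2 replicate 2. A fit to SM and HE2 alone called 2 of the 10 and 315 features in all, against 1973 features in the fit to all arrays. The median of the 10 genes was -3.12 and that of all features 0.11.

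All 10 genes lay on the same side of SM in HP as in HE2. Against SM, 8 of the 10 fell in HP, beside 6.21% of 25266 features called lower. Anxa1 was 10.2-fold lower (-3.35 ± 0.61, limma adjusted p = 0.00113) and S100a11 7.21-fold lower (-2.85 ± 0.40, adjusted p = 0.000119). S100a6 (-2.36), Lgals1 (-2.48), Anxa3 (-2.37), Anxa2 (-2.23), Anxa5 (-1.83) and S100a10 (-1.81) fell less. S100a4 rose 3.83-fold (1.94 ± 0.59, limma adjusted p = 0.0426; 3.12% of features called higher). That call held under 10 of 19 alternatives, with limma adjusted p from 0.00235 to 0.483, and it was lost without either HP array and without SM replicate 1 or 3. Lgals3 differed by -0.61 ± 0.79 and its arrays overlapped. HP replicate 2 was nearer to SM for most genes, with S100a6 at 5.65 against 3.11 on replicate 1, and its summed smooth muscle markers were 8.03 against 5.83. Without HP replicate 1 and without HP replicate 2, in that order, Anxa1 was -2.18 and -4.53, Anxa2 -1.18 and -3.27, S100a6 -1.09 and -3.63, and Lgals1 -1.87 and -3.09. Without HP replicate 1, 1 gene of the 10 was called, S100a11. A fit to SM and HP alone called none of the 10 and 844 features in all, against 2357 in the fit to all arrays. Scaling to the array median called 3 of the 10 and 1875 features in all. Without SM replicate 1, 5 were called. Without SM replicate 2, which had the endothelial signal, 9 of the 10 genes were called in HE2 and 7 in HP. Both comparisons share the SM arrays and are not independent of each other.

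The branches were also compared among DOX arrays. In HE2 DOX, 7 of the 10 were lower than in SM DOX (3.92% of 24390 features called lower), all but S100a4, Anxa5 and Lgals3. In HP DOX, 7 were also lower (4.22% of 25371), all but S100a4, Lgals1 and Lgals3. By the probe kept per gene, Anxa2 had the largest differences, at -4.03 ± 0.66 in HE2 DOX and -3.56 ± 0.66 in HP DOX (limma adjusted p = 0.000743 and 0.00231). In HP DOX it was -2.95 without HP DOX replicate 1 and -4.16 without HP DOX replicate 2. The second Anxa1 probe gave -4.41 and -4.37, against -3.82 and -3.33 for the one kept. S100a4 was 0.85 ± 0.64 and 1.09 ± 0.64 and was not called, and its second probe gave 1.68 and 1.87. A fit to the compared groups alone called 0 of the 10 in HE2 DOX, where it called 0 features in all, against 1376 in the fit to all arrays. In HP DOX it called 2 of the 10 and 786 features in all, against 1571. Scaling to the array median called 4 of the 10 in HE2 DOX and 1151 features in all. Without HE2 DOX replicate 1 the count in HE2 DOX was 3, and without SM DOX replicate 1 it was 4. In HP DOX it was 1 without HP DOX replicate 1 and 4 without either SM DOX array. Without SM DOX replicate 2, the other array with endothelial signal, it was 6 in HE2 DOX.

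**Figure D2:**
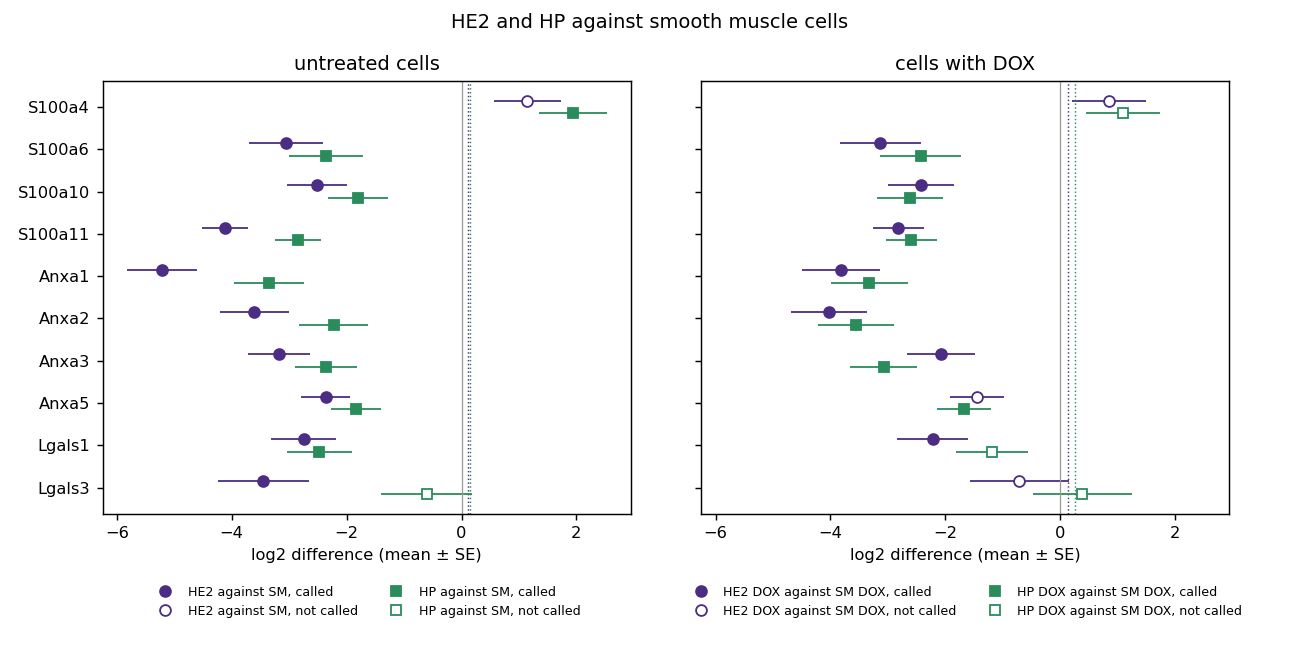
Log2 difference of each gene between HE2 or HP and SM, in untreated cells (left) and with DOX (right). Points are differences of group means, bars are ± 1 SE of the limma fit, filled points were called and dotted lines are the medians of all features tested. In untreated HE2, 9 of the 10 genes lie at or below -2.37, and S100a4 lies at 1.14.

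On the slide with HE2 replicate 1 and SM replicate 3, S100a11 differed by -4.72 and Anxa1 by -5.20, and on the slide with HE2 and SM replicate 2, by -3.87 and -5.55. For S100a6 the values were -3.38 and -2.57 in HE2 and -3.44 and -1.11 in HP. For Lgals3 in HP they pointed in opposite directions, at -1.32 and 1.30. With the slide as a fixed block, 9 of the 10 genes were called in each of the untreated comparisons, 5 in HE2 DOX and 6 in HP DOX. These counts are given without the share of all features called under that block.

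Markers of other cells moved along this branch too. Of 10 fibroblast markers, all 10 were tested against SM, and 8 fell in HE2 and all 10 in HP. Their summed level was 7.55 to 7.84 in SM, 2.54 to 2.62 in HE2 and 2.60 to 3.85 in HP, with 10, 5 and 8 of them above background on all arrays of the group. Mesothelial markers were at 4.73 to 7.56 in SM, -0.55 to 0.01 in HE2 and 1.22 to 3.30 in HP, and 3 of the 4 tested fell in each. Myeloid markers were higher in both, with 4 of 8 tested called in HE2 and 5 of 9 in HP. Summed erythroid markers were 9.09, 6.22 and 8.56 on the 3 SM arrays, 6.71 to 6.74 in HE2 and 7.35 to 8.13 in HP, and 1 of the 7 tested fell in HE2. Summed pluripotency markers were 4.46, -0.13 and 3.99 in SM, -0.36 to 1.97 in HE2 and -1.01 to -0.07 in HP, and 3 of the 4 tested fell in each. SM replicate 2 thus lay below the other SM arrays for both lists. The part of these cells in the result was not tested. In bulk RNA, fewer cells of a type and less RNA per cell cannot be told apart.

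HP against HE2 gave no call among the 10 genes (limma, 0.00394% of features called; 3 of the 10 at an unadjusted p under 0.05, beside 6.05%). All 10 had higher means in HP, beside 54.2% of features. Lgals3 was at 2.84 ± 0.86 (limma adjusted p = 0.455) with no overlap of its arrays, but it entered the test through HP and was not well above background on 1 of the 2 HE2 arrays, so that this size is uncertain too. Anxa1 and S100a11 were 1.86 ± 0.67 and 1.26 ± 0.44, and their arrays did not overlap either. Anxa1 was 0.69 without HP replicate 2 and 3.03 without HP replicate 1.

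The next comparisons asked what dnFOS induction did in each population. In no single population did limma call any of the 10 genes with DOX. Few features were called at all, with 0.00421% in FLK1+ 5h, 0.0% in d1 BC, 0.0084% in SM, 0.0% in HE2 and 0.0398% in HP. At an unadjusted p under 0.05 the counts of the 10 genes were 0, 2, 8, 3 and 6 in that order, beside 4.99%, 1.44%, 2.58%, 8.92% and 3.5% of features. By value, nearly all lay lower with DOX. The median difference was -0.27 in FLK1+ 5h, -1.17 in d1 BC, -1.55 in SM, -0.68 in HE2 and -1.63 in HP, where all features had medians of -0.04, 0.13, 0.09, 0.17 and 0.25. The DOX arrays lay wholly below the untreated ones for 3 of the 10 genes in FLK1+ 5h (16.4% of features), 8 in d1 BC (9.86%), 8 in SM (6.07%), 5 in HE2 (14.4%) and 10 in HP (12.5%).

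S100a6 had similar mean differences in SM, HE2 and HP. With DOX its signals were 6.05 and 5.61 in FLK1+ 5h and 5.45 and 5.23 in d1 BC. They were 4.66 and 3.83 in SM, 0.38 and 1.84 in HE2, and 1.42 and 2.22 in HP. In d1 BC, SM, HE2 and HP every DOX array lay below every untreated array, and in FLK1+ 5h the arrays overlapped. The differences were -0.22 ± 0.70 in FLK1+ 5h, -1.42 ± 0.70 in d1 BC, -2.50 ± 0.64 in SM, -2.58 ± 0.70 in HE2 and -2.56 ± 0.70 in HP. The HP value rested on untreated arrays that lay far apart, and it was -1.29 without HP replicate 2 and -3.84 without HP replicate 1. Leaving out 1 array gave -1.85 to -3.31 in HE2 and -2.08 to -2.92 in SM. The lowest limma adjusted p in the fit to all arrays was 0.447. Within slides the 8 DOX pairs of d1 BC, SM, HE2 and HP were all lower, and the 1 pair of FLK1+ 5h differed by 0.04.

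Lgals1 was lower by value in the same places with less even sizes. Its DOX signals were 6.24 and 6.53 in d1 BC, 6.16 and 5.20 in SM, 3.63 and 3.30 in HE2, and 4.59 and 4.41 in HP. The arrays did not overlap in these 4 populations. The differences were -1.18 ± 0.62, -2.20 ± 0.57, -1.68 ± 0.62 and -0.91 ± 0.62. The last of these, in HP, was -0.30 to -1.52 when 1 array was left out. All 9 within-slide pairs outside HE1 were lower, the smallest in a sorted population being that of HP replicate 1, at -0.22.

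Anxa1 and S100a4 were lower with DOX in all 9 such pairs as well. Anxa1 differed by -1.96 ± 0.67 in d1 BC, -2.34 ± 0.61 in SM, -0.94 ± 0.67 in HE2 and -2.31 ± 0.67 in HP, where it was -1.14 without HP replicate 2 and -3.49 without HP replicate 1. S100a4 was -1.31 and -0.59 in HE2 DOX against 0.42 and 1.05 in HE2, and -0.58 and -0.85 in HP DOX against 1.04 and 2.02 in HP. Its differences were -1.69 ± 0.64 and -2.25 ± 0.64, so that the high HP level of S100a4 was not seen on the DOX arrays. Both genes had a second probe, which gave the same sign in each DOX comparison. From FLK1+ to FLK1+ 5h the second Anxa1 probe gave a log2 difference of 2.34 against 3.82.

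The other members had smaller or mixed differences. S100a11 differed by -1.58 ± 0.40 in SM and -1.32 ± 0.44 in HP, and by -0.28 ± 0.44 in HE2. Anxa2 differed by -0.25 ± 0.66 in d1 BC, -0.61 ± 0.61 in SM and -1.94 ± 0.66 in HP, the last being -0.90 without HP replicate 2 and -2.98 without HP replicate 1. Anxa3 differed by -2.23 ± 0.59 in HP. Anxa3 had the lowest limma adjusted p of the 10 genes in any single population, 0.374. S100a10 lay within 0.30 of 0 in every tested population but HP, where it was -1.09 ± 0.57. Lgals3 was 0.58 ± 0.86 in HE2 with DOX and -2.15 ± 0.79 in SM. It was not well above background on untreated HE2 replicate 1, so that its sizes in HE2 are uncertain. The HE2 value was -0.27 without HE2 DOX replicate 2 and -0.23 without HE2 replicate 1. The within-slide pairs of Lgals3 were 0.54 and 0.62 in HE2 and -1.59 and -2.58 in SM. The difference between these 2 DOX effects was 2.73 ± 1.17 in size and was not called (limma adjusted p = 1.00).

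**Figure D3:**
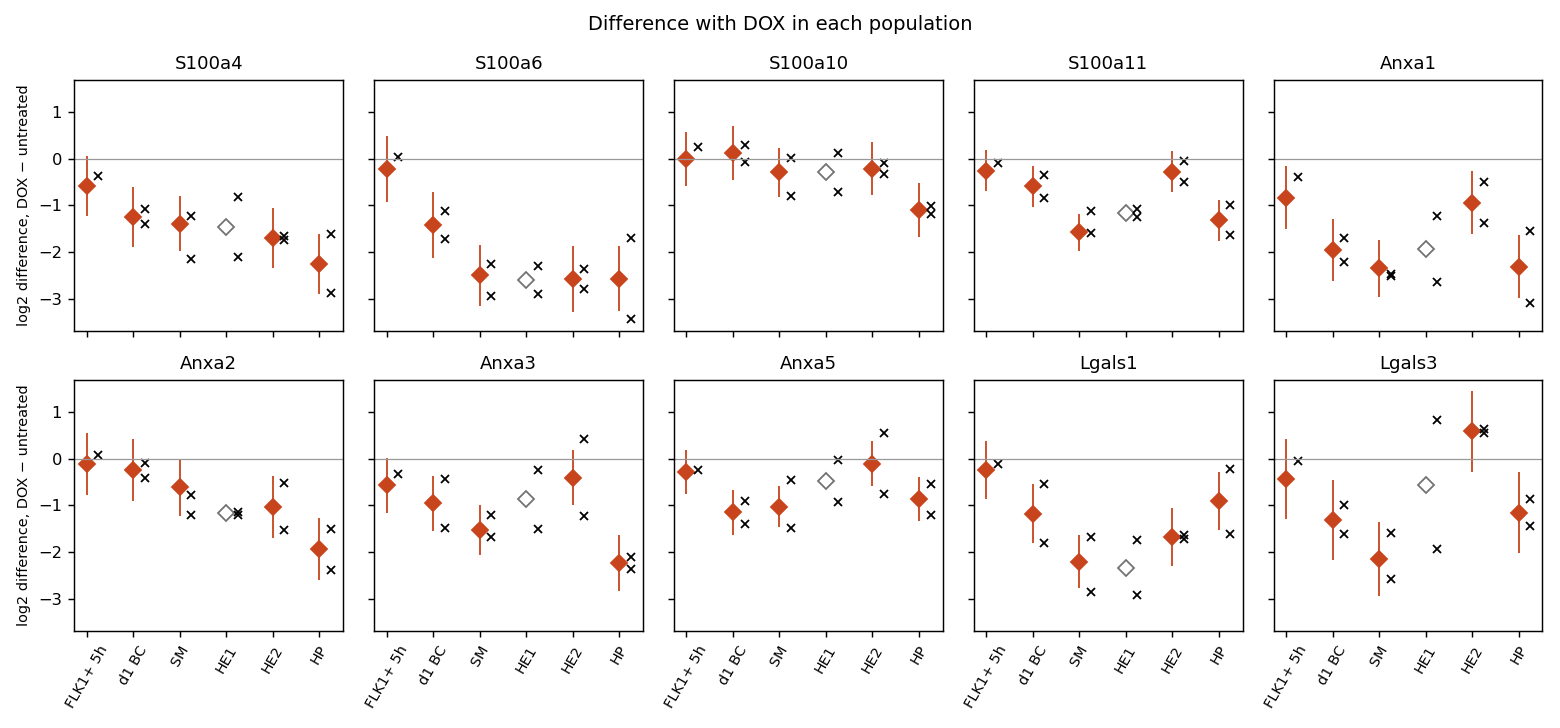
Log2 difference between DOX and untreated arrays for each gene in 6 populations. Diamonds are differences of group means with ± 1 SE of the limma fit, open grey diamonds are HE1, which chose the genes and has no test, and crosses are pairs that shared a slide. S100a6 lies near 0 in FLK1+ 5h and between -2.50 and -2.59 in the 4 sorted populations.

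Whether the DOX effect differed between populations was tested for the 10 pairs of FLK1+ 5h, d1 BC, SM, HE2 and HP. None of the 100 tests was called (limma, lowest adjusted p = 0.381; 0.0% of all features), and 8 of the 100 had an unadjusted p under 0.05, beside 3.17% of features. For S100a6, the effect in SM, HE2 and HP was larger than in FLK1+ 5h by value, by 2.28 ± 0.95, 2.36 ± 1.00 and 2.35 ± 1.00, and the effects in SM and HE2 differed by 0.08 ± 0.95. A p that misses the threshold does not show that the effects were alike.

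The mean DOX difference over SM, HE2 and HP, a contrast chosen after the single populations had been seen, used 3 sets of untreated and DOX arrays at once. In it, 3 of the 10 genes fell, beside 0.203% of 27146 features called lower. S100a6 was 5.84-fold lower (-2.55 ± 0.39, limma adjusted p = 0.00682) and was lower in 6 of 6 within-slide pairs, at -1.69 to -3.43. Anxa1 was 3.65-fold lower (-1.87 ± 0.38) and S100a4 3.43-fold lower (-1.78 ± 0.36), each with a limma adjusted p of 0.0481 and lower in 6 of 6 pairs. Lgals1 missed the threshold at -1.60 ± 0.35 (limma adjusted p = 0.0647; 6 of 6 pairs). S100a11 (-1.06), Anxa2 (-1.20) and Anxa3 (-1.39) were not called, nor were S100a10 (-0.53), Anxa5 (-0.67) and Lgals3 (-0.91). The median of the 10 genes was -1.29 and that of all features 0.11. SM, HE1, HE2 and HP were sorted from blast cultures, and the labels do not say which arrays shared a culture. The 6 pairs may therefore not be independent of each other or of the HE1 arrays.

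The calls in this mean depended on how slides and spread were handled. With the slide as a fixed block, 7 of the 10 genes were called, the 3 above with S100a11, Anxa2, Anxa3 and Lgals1, and the S100a6 difference was -2.66. That fit called 190 features in all, against 59 without a block. With the replicate number as a block, S100a6 alone was called. Leaving out each array in turn left S100a6 called each time, at -2.12 to -2.97, whereas 1 or 2 genes of the 10 were called in all, among them 1 without SM replicate 2 and 2 without SM DOX replicate 2. A fit to these 3 populations alone called none of the 10 and 7 features in all, against 59 in the fit to all arrays. Scaling to the array median called 1 of the 10 and 28 features in all, and array weights called 1 and 35.

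**Figure D4:**
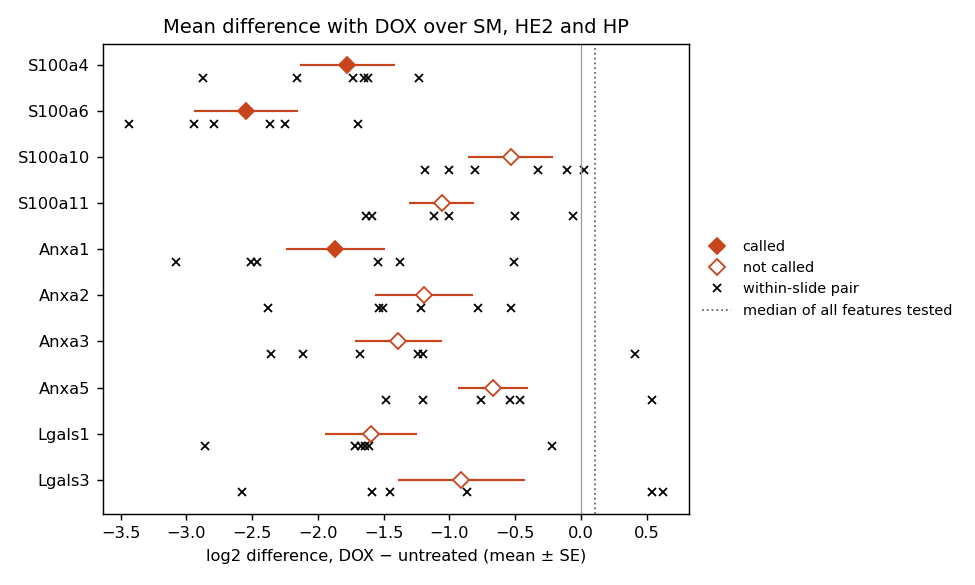
Mean log2 difference between DOX and untreated arrays over SM, HE2 and HP, with ± 1 SE of the limma fit. Filled diamonds were called, crosses are the 6 within-slide pairs and the dotted line is the median of all features tested (0.11). S100a6, Anxa1 and S100a4 lie at -2.55, -1.87 and -1.78.

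Other cell markers were read beside these differences. In the same mean, 8 of 9 myeloid markers were lower by value (median -1.50), with 1 called, Tyrobp. Of 8 hematopoietic markers 1 was called, Spi1, and both called genes were lower. The hematopoietic sums were wholly higher with DOX in HE2, at 6.05 to 6.36 without and 6.44 to 6.90 with it. They were wholly lower in d1 BC, at 2.49 to 2.95 and 1.91 to 2.16, and overlapped in the other populations. All 4 mesothelial markers tested were lower by value (median -1.77), with 0 called and 3 at least 2-fold lower. In SM the summed myeloid markers were 4.47 to 5.34 without and 3.63 to 3.86 with DOX, and the mesothelial sums were 4.73 to 7.56 and 2.63 to 7.24, which overlapped. The mesothelial sums were wholly lower with DOX in HE2, at -0.55 to 0.01 without and -2.79 to -0.61 with it, in HP, at 1.22 to 3.30 and -0.93 to 0.90, and in d1 BC, at 8.04 to 8.13 and 6.61 to 7.85. In HP the myeloid sums were 7.58 to 7.74 and 7.09 to 7.53. The endothelial sums were wholly higher with DOX in HE2, at 6.49 to 6.95 without and 7.03 to 7.28 with it. The same held in HP, at 5.72 to 5.98 and 6.01 to 6.31, and in d1 BC, at 3.80 to 4.44 and 4.56 to 4.74. In FLK1+ 5h they were 2.45 to 3.25 and 3.52 to 4.73, and in SM and HE1 they overlapped. Fibroblast and smooth muscle markers had medians of 0.08 and -0.51 with 0 called by limma. The summed fibroblast markers did not overlap in SM, at 7.55 to 7.84 without and 6.76 to 7.41 with DOX, in d1 BC, at 5.44 to 5.68 and 4.16 to 4.70, or in HE1, at 5.94 to 6.67 and 5.53 to 5.88. They overlapped in HE2, at 2.54 to 2.62 and 2.57 to 2.89, and in HP, at 2.60 to 3.85 and 2.77 to 3.19. Their part in the result was not tested.

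In HE1 itself, whose arrays chose S100a6 and Lgals1, the values are given without a test. S100a6 was 5.23 and 5.87 untreated and 2.94 and 2.98 with DOX, a difference of -2.59. Lgals1 was 7.91 and 7.55 untreated and 6.17 and 4.62 with DOX, a difference of -2.33. For both genes every DOX array lay below every untreated array. Of the genes that were not themselves the reason for the choice, Anxa1 (-1.93), S100a4 (-1.46), Anxa2 (-1.17) and S100a11 (-1.16) came next, and S100a10 and Lgals3 overlapped. The DOX arrays lay below the untreated ones for 8 of the 10 genes, beside 8.34% of features, a share that the choice of the genes touches. The within-slide differences of Lgals3 were -1.93 and 0.82, in opposite directions.

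The HE1 mean lay between those of SM and HE2 for all 10 genes, although HE1 arrays overlapped those of SM for S100a4, Anxa2, Anxa5 and Lgals1 and those of HE2 for Lgals3. Against SM, the median difference of the 10 genes in HE1 was -1.01, with Lgals3 at -3.30 and Anxa1 at -2.57 and with Anxa5, Lgals1 and S100a4 within 0.25 of 0. From HE1 to HE2 the median was -2.21 and 8 of the 10 had lower arrays throughout (16.1% of features). Anxa2 was 6.87-fold lower in HE2 than in HE1, Anxa1 6.26-fold, S100a11 6.18-fold and Lgals1 6.01-fold. Within slides the log2 differences were -3.50 and -2.06 for Anxa2 and -3.63 and -1.66 for Anxa1. They were -2.70 and -2.55 for S100a11 and -2.56 and -2.61 for Lgals1. S100a4 was 1.86-fold higher.

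The profiles of S100a6 and Lgals1 over the 13 group means were set against those of 4013 genes that varied. The genes most like S100a6 were Gbp3 (Pearson r = 0.96), Axl (0.96), Olfr1383 (0.95), Ankrd1 (0.94) and Tubb3 (0.93). Those most like Lgals1 were Plat (0.91), Olfr1383 (0.90), Sfxn3 (0.90), S100a11 (0.90) and S100a6 (0.89). These are descriptions, and the 13 means share slides, scaling and the HE1 groups that chose both genes. Among the 10 genes, S100a6 was most like Anxa2 (0.90) and least like S100a4 (0.40).

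The other genes of the 3 families were counted in the same way. Of 12 other S100 genes, 6 were tested from FLK1+ to FLK1+ 5h and 5 in the branch comparisons, where 0 were called in HE2 against SM (limma) and 1, S100a5, was higher in HP. Of 8 other annexin genes, Anxa6 and Anxa8 were the 2 of 6 tested that fell in HE2, beside the 6.34% of all features called lower, and Anxa8 entered that test through SM, with 1 of its 2 HE2 arrays not well above background. In HP the same 2 fell and Anxa11 rose. Of 9 other galectin genes, 1 of the 5 tested, Lgalsl, fell in HE2 and 1 of 6, Lgals8, rose in HP, where 3.12% of features were called higher and 6.21% lower. These lists are short, and they are given as counts only. These names were added after their values were seen, and the 4 genes given next were picked for the largest called differences. The largest changes among all these and the partner list were those of Ahnak, Anxa8, Lgals9 and S100a3. Ahnak, a giant scaffold protein that binds the annexin A2-S100A10 pair, was at 5.98 in SM and 1.13 in HE2 (-4.85 ± 0.66, limma adjusted p = 7.5e-05). Anxa8 was well above background on both FLK1+ 5h arrays and on neither FLK1+ array, which makes it at least 28.3-fold higher in FLK1+ 5h. Lgals9 rose by 4.38 ± 1.03 from FLK1+ 5h to d1 BC, and S100a3 by 3.77 ± 0.60 from FLK1+ to FLK1+ 5h, where it was above background on 1 of the 2 FLK1+ arrays. With DOX, 0 of the other S100, annexin, galectin or partner genes tested were called by limma in SM, HE2 or HP or in their mean, and their medians in the mean lay between -0.24 and 0.17.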

How the data were processed

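RNA of 27 samples was hybridised to 1-colour Agilent mouse arrays. The deposited scanner files hold spot intensities after the authors' Feature Extraction (version 10.7.1.1 per the labels, 10.7.3.1 per the file headers), with background already subtracted. A deposited table holds the authors' log2 values, already processed, and was used as an alternative.

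Here log2 of the processed intensity minus the 75th percentile of each array was used. Control spots and outlier spots were left out, spots of a probe were averaged, and the probe with the highest mean was kept per gene, which left 37208 features from 55681 probes. Features entered a test if 1 or both of the groups compared had them well above background on every array. limma 3.58.1 in R 4.3.3 fitted group means over all 27 arrays, with 14 residual degrees of freedom, and p-values were adjusted by Benjamini-Hochberg over all features tested. Calls needed an adjusted p under 0.05 and a 2-fold change. The code was tested on simulated data. Python 3.11.15, pandas 2.3.3, numpy 2.4.6 and matplotlib 3.10.9 served for summaries and plots. No arrays were identical. The number of arrays, 2 or 3 a group, limits the precision.

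Alternatives were normexp background correction (offset 50), quantile and median scaling, the authors' values, other filters, the mean of all probes, slide and replicate blocks, array weights, a mean-variance trend, a fit to the groups compared alone, and leaving out each array. The genes and lists were chosen with earlier results of these data known. Other family and partner genes were named for the 4 largest called differences, and likeness to S100a6 or Lgals1 for the 5 highest correlations among genes with an SD of at least 1 over the groups. RefSeq sequences were used for promoters (GRCm38.p6). Protein sequences were not used here.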

Additional observations from a re-analysis of the deposited data

How the results depend on the processing

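Of the values for single genes, 1883 kept their direction and side of the threshold, 39 passed it, 152 no longer did and 27 reversed; of the counts and medians, 304 stayed and 53 moved. The cause of these shifts was not tested. From FLK1+ to FLK1+ 5h, 5 genes were called with the authors' values, 1 with the slide as a fixed block and 0 to 3 without 1 array. From FLK1+ 5h to d1 BC, 2 were called with normexp, 3 with array weights and 1 each with quantile scaling, the authors' values, the mean of probes, slide as a random block and a variance trend. From d1 BC to SM, quantile scaling, the authors' values and array weights each called 1. A fit to the groups compared alone called 2 in HE2 against SM, 0 in HP against SM, 0 in HE2 DOX against SM DOX and 2 in HP DOX against SM DOX. In that order it called 315, 844, 0 and 786 features in all. Scaling to the array median called 3 in HP against SM and 4 in HE2 DOX. Without 1 array the counts were 6 to 9 in HE2, 1 to 8 in HP, 3 to 6 in HE2 DOX and 1 to 5 in HP DOX. With the authors' values 2 genes were called for DOX in SM. For the mean DOX difference, 7 genes were called with the authors' values and with either slide block and 6 with a variance trend. There, 1 was called with the array median, no filter, the filter on both groups, array weights and the replicate block, 0 with the groups compared alone, and 1 to 2 without 1 array. The labels do not say what a replicate number marks, and each population has 2 pairs, so samples were not treated as paired. The deviations of untreated and DOX arrays with the same number were set against each other. They correlated at 0.55 in HP, 0.38 in d1 BC, 0.34 in SM, 0.25 in HE2 and 0.15 in HE1, and at -0.13 in FLK1+ 5h. Arrays with the same number shared a slide in the first 5 populations, whereas the FLK1+ 5h replicate 1 arrays lay on different slides. A pairing by number and an effect of the slide can therefore not be told apart. With the replicate number as a block, the counts were otherwise 3 in FLK1+ 5h, 9 in HE2, 8 in HP, 7 in HE2 DOX, 6 in HP DOX and 0 for DOX in each single population, and with crossed numbers 0 in FLK1+ 5h DOX. The HE1 DOX median of -1.17 was -0.89 with normexp, -1.44 with quantile scaling and -0.89 with the array median. The HE1 to d1 BC median of -0.91 was -1.31, -0.59 and -1.63. Values near 0 changed sign. For FLK1+ 5h against FLK1+, S100a10 was -0.27 with the slide fixed, -0.0045 with it random and -0.27 to 0.68 without 1 array, and Lgals1 was -0.22 with the slide fixed and -0.22 to 1.18 without 1 array. Lgals3 was 0.27 with the slide fixed and -1.57 to 0.14 without 1 array in HE2 DOX against SM DOX, and -0.38 to 1.16 without 1 array in HP DOX. With DOX in d1 BC, S100a10 was -0.39 with normexp, -0.018 with quantile scaling, -0.42 with the authors' values and -0.17 to 0.40 without 1 array. With the array median it was 0.048 in SM and 0.25 in HE2, and without 1 array -0.86 to 0.27 and -0.76 to 0.33. In HE2 with DOX, the array median gave 0.18 for S100a11, 0.050 for Anxa3 and 0.35 for Anxa5, and normexp gave 0.011 for Anxa5. Without 1 array these were -0.87 to 0.046 for Anxa3, -0.54 to 0.33 for Anxa5 and -0.27 to 1.44 for Lgals3. Signal over background limits S100a4 in FLK1+ cells and Lgals3 in HE2, where 1 array of each was not well above it.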
